A study of Mus musculus with 6 samples.

Results

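The Hippo pathway and its Tead transcription factors were followed at the level of H3K4me3, a histone mark of the promoters of active and poised genes, in Lgr5-positive progenitor cells of the newborn mouse cochlea. The 10 genes were Yap1, Wwtr1, Tead1, Tead2, Tead3, Tead4, Lats1, Lats2, Nf2 and Sav1, taken by name from 21887 protein-coding genes of the mm10 assembly, and all 10 were found. They were chosen as a pathway and not by their values, although earlier results of these data were known. Cells exposed to neomycin for 12 h, an aminoglycoside antibiotic that kills hair cells, were set against untreated cells, with 2 H3K4me3 libraries in each group. Each group also had 1 input library, not analysed here. All samples came from C57BL/6 mice of either sex at postnatal day 0 to 3 that carried Lgr5-EGFP-creERT2, an allele that places a green fluorescent protein and an inducible Cre under the Lgr5 locus. The cochleae had been cultured with B27, N2, IGF-1, heparin sulfate, bFGF and EGF, and the dissociated cells were sorted by green fluorescence. Lgr5 marks a subset of supporting cells in the newborn cochlea, and the sort takes any cell in which the allele is on. Nothing in the labels ties the 2 libraries of a group to different cultures or animals, and p-values then measure only the spread between these libraries, which may be technical.

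In the Hippo pathway a chain of kinases restrains a pair of transcriptional coactivators, YAP (Yap1) and TAZ (Wwtr1). Merlin (Nf2) and other membrane proteins feed the kinases MST1 and MST2, which with their scaffold Salvador (Sav1) activate LATS1 and LATS2. These phosphorylate YAP and TAZ and keep them out of the nucleus. When the kinases are quiet, the coactivators bind TEAD factors on DNA and turn on genes of growth. In the developing inner ear, YAP and TEAD factors are known to promote the proliferation of sensory progenitors.

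The deposited data are lists of peaks, called in each library on its own. They held 14203 and 11545 peaks in the neomycin libraries (replicates 1 and 2, in this order throughout) and 15938 and 10520 in the untreated libraries. Read totals are not in the lists, so depth is unknown, and a missing peak means that none was called. The shortest peak was 48 and 110 bp with neomycin and 187 and 234 bp without, and the median peak was 70.0 and 142.0 bp against 310.5 and 340.0 bp, so peak length differed between the groups across the genome. The labels name H3K4me3 and 1 antibody for the 4 libraries, but H3K4me2 stands in the names under which the untreated lists were deposited, which leaves some doubt over the mark measured there. In a mixed population a mark in fewer cells cannot be told apart from less of it per cell. Of 10 supporting and progenitor cell markers, among them Lgr5, Sox2 and Prox1, 9 and 10 had a peak at the start site with neomycin, against 10 and 10 without. Of 6 mesenchyme markers, the neomycin libraries marked 0 and 0 and the untreated libraries 3 and 4, and Coch, Twist1 and Prrx2 had peaks in the 2 untreated libraries with none in the 2 neomycin libraries. The counts were 2 and 1 against 4 and 1 of 6 hair cell markers. Among these Atoh1, a transcription factor that drives hair cell formation, had 0 and 0 bp of peaks with neomycin and 601 and 955 bp without. The counts were 2 and 2 against 3 and 1 of 4 glial markers, 1 and 0 against 1 and 0 of 4 endothelial markers, 0 and 0 against 1 and 0 of 4 neuronal markers, and 0 in each library of 5 macrophage and blood markers.

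H3K4me3 at the Hippo genes sat at their start sites. A start-site window was taken as 1 kb either side of the annotated start, and it counted as marked where at least 1 bp of a peak of that library fell inside it. RefSeq start sites with strand were at hand for 8 of the 10 genes. For Tead1 and Tead4 the window lay at the gene end with peaks in more libraries, a choice that favours finding a peak. No strand was listed for them, so each gene was taken to run inward from that end. Within the genes and 1 kb either side, the 4 libraries together had 54 peaks, and 51 of them touched a start-site window. The other 3, in Tead3 and Lats1, lay 1032 to 1320 bp inside the gene, 2 and 1 of them in the neomycin libraries. No peak was found in the rest of these genes, which are between 17.7 kb (Tead2) and 227 kb (Tead1) long. Across all genes, 39.3% and 37.6% had a peak within the gene and 1 kb either side with neomycin and 51.0% and 39.7% without, where 8 and 5 against 10 and 9 of the Hippo genes did. Of the genes with a peak, 24.3% and 22.4% had one away from the window with neomycin and 20.5% and 17.7% without. Counted as peaks, 22.0% and 20.8% lay away from the window with neomycin and 20.0% and 18.0% without.

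**Figure D1:**
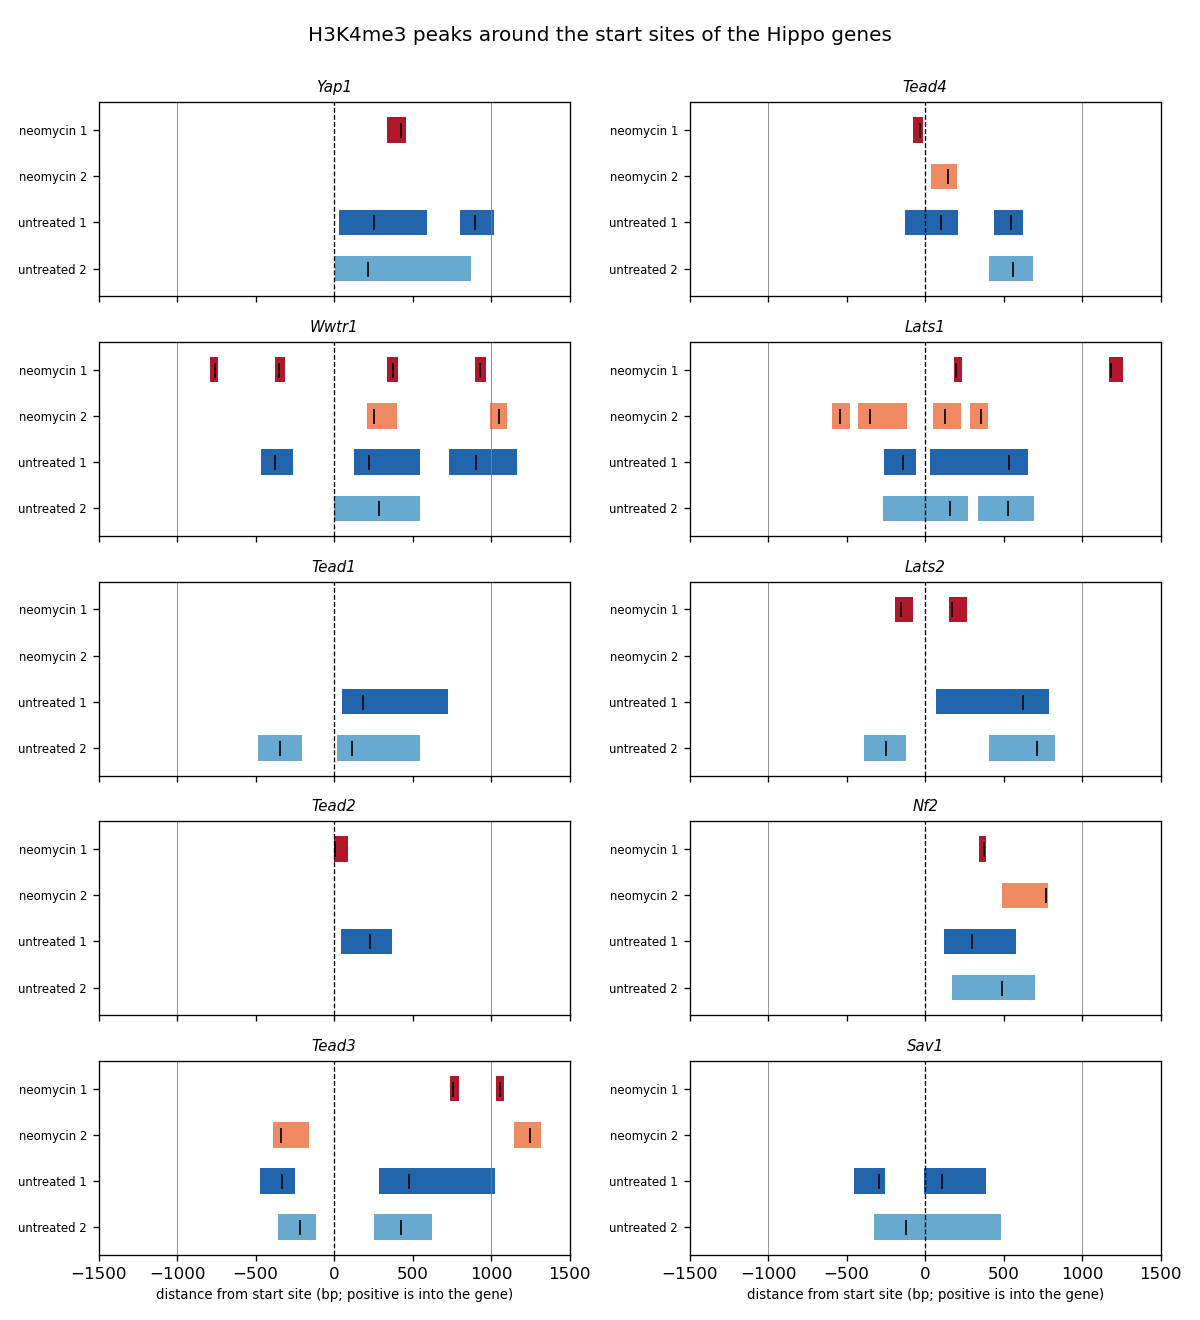
Peaks around the start site of each gene, with distance from the start in bp on the x axis (positive values run into the gene) and 1 row per library. Bars are peaks, black ticks their summits, dashed lines the start site and grey lines the 1 kb limits of the window. Bars are mostly shorter in the neomycin libraries, and Tead1 and Sav1 have none there.

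Most of these peaks lay on the gene side of the start. Of the 51 peaks, 32 lay wholly inside the gene, 14 wholly outside it and 5 across the start, and the median summit was 218.0 bp inside. The median summit lay 185.5 and 144.0 bp inside with neomycin and 227.0 and 218.0 bp inside without. Over all genes with a listed start, the median peak summit was 230.0 and 178.0 bp inside with neomycin and 202.0 and 228.0 bp without, so the position at the Hippo genes was close to that of other genes. The Hippo values include Tead1 and Tead4, which have no listed start, so the sets are not fully alike. Several genes had peaks on both sides with a gap at the start. In untreated replicate 1 the gap ran from -57 to 31 bp of the start at Lats1 and from -250 to 289 bp at Tead3.

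The 10 genes were marked more often than the average gene in each library. With neomycin, 8 and 5 of the 10 were marked, where 33.9% and 32.7% of all 21887 protein-coding genes were. In the untreated libraries 10 and 9 were marked, against 46.0% and 35.4% of all genes. Wwtr1, Tead3, Tead4, Lats1 and Nf2 were marked in all 4 libraries (15.9% of all genes), and all 10 in at least 1 (53.9% of all genes). Tead1 and Sav1 had peaks in each untreated library and lacked them in each neomycin library, a pattern held by 4.66% of all genes. Yap1 and Lats2 lacked a peak in neomycin replicate 2 alone (6.39% of all genes). Tead2 was marked in replicate 1 of each group (2.64% of all genes). None of the 10 showed the reverse, a peak in each neomycin library alone, which held for 1.37% of all genes. Presence could not be tested, because 4 libraries part into pairs in 3 ways and relabelling them gives no p under 0.333. The pattern of Tead1 and Sav1 was also held by 3 of 6 mesenchyme markers, Coch, Twist1 and Prrx2. Among the 6 hair cell markers it was held by 1, Atoh1, while Myo6 lacked a peak in untreated replicate 2 alone. These markers were named after their values were seen, and the part of these cell types in this result was not tested.

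The promoters of these genes were rich in CpG dinucleotides, the sequence feature that goes with H3K4me3 at mammalian promoters. RefSeq promoters, from 250 bases before to 50 bases after the start (build GRCm38.p6), were at hand for the same 8 genes. They held 13 to 50 CpG with a median of 31, where all 17492 promoters had a median of 13. Promoters marked in no library had a median of 3 CpG, and those marked in 1, 2, 3 and 4 libraries had 17, 21, 24 and 25. Among the 9003 promoters with at least 13 CpG, 58.1% and 56.7% had a peak with neomycin and 77.8% and 61.3% without, and 7.39% were marked in the untreated cells alone. This cutoff equals the lowest count of the 8 Hippo promoters, so all 8 pass it, and it is also the median of all promoters. It is not matched to the Hippo median of 31, and Tead1 and Tead4 could not be placed. Of all 10 Hippo genes, the untreated libraries marked 100.0% and 90.0%, above the shares of that set. For the neomycin libraries it was 80.0% in replicate 1, above, and 50.0% in replicate 2, below. The part of CpG content in the marking of these genes was not tested. Promoters that bear on the contrasts are shown 5′ to 3′ with each CpG in capitals. Sav1 had the most CpG, but no neomycin peak, Yap1 had a peak in 3 libraries, Lats1 was marked in all 4, and Tead2 had the fewest CpG of the 8.
Sav1, chr12:69986953-69987252, minus strand, 50 CpG: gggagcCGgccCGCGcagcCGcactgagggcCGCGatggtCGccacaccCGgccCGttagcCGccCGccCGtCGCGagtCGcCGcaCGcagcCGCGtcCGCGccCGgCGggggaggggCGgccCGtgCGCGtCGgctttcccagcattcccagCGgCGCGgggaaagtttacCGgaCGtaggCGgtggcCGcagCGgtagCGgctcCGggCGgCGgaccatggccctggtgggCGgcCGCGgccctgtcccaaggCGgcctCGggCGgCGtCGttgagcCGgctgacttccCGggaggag
Yap1, chr9:8004547-8004846, minus strand, 49 CpG: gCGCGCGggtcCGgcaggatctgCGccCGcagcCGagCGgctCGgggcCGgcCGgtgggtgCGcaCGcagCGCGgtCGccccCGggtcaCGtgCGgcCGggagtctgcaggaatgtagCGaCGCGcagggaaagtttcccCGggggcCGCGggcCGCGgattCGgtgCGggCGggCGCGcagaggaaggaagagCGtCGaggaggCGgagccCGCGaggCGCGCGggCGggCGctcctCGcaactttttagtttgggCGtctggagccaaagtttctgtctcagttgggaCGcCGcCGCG
Lats1, chr10:7680959-7681258, plus strand, 42 CpG: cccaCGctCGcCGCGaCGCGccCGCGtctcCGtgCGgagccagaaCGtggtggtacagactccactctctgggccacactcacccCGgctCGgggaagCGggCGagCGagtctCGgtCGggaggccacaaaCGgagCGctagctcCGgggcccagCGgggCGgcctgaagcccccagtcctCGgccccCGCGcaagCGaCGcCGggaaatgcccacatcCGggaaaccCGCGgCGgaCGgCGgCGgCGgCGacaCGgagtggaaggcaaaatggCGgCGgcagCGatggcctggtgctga
Tead2, chr7:45215542-45215841, plus strand, 13 CpG: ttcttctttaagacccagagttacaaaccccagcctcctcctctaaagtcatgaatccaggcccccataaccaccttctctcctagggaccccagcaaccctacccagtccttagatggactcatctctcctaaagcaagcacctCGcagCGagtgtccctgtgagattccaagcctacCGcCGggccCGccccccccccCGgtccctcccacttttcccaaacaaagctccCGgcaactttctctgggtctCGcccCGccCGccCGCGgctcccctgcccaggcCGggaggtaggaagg
Of the 300 bases shown for Sav1, 0 and 0 lay under peaks with neomycin and 55 and 300 without. For Lats1 the counts were 0 and 139 against 213 and 300, for Yap1 0 and 0 against 17 and 47, and for Tead2 51 and 0 against 3 and 0.

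The coactivators Yap1 and Wwtr1 differed in how regularly they were marked. Yap1, on chromosome 9 from 7931999 to 8004638, encodes YAP. Its peaks summed to 121 bp in neomycin replicate 1, with none in neomycin replicate 2, against 783 and 872 bp in the untreated libraries. The highest summit pileup was 6 with neomycin, at percentile 16.8 of that list, and 18 and 16 without, at percentiles 86.9 and 92.6 of theirs. Yap1 thus stood high among untreated peaks and low in the 1 neomycin list that held it, and the nearest peak of neomycin replicate 2 was 37.9 kb away. Wwtr1, which encodes TAZ, lies on chromosome 3 from 57455644 to 57575910. It had 4 and 2 peaks with neomycin, summing to 254 and 302 bp, against 3 and 1 without, summing to 1061 and 545 bp. The sums of the groups did not overlap, with neomycin below, as at 80.2% of the 3486 windows marked in all 4 libraries. Its highest pileup was 8 and 10 with neomycin and 15 and 10 without, and in percentiles the order was mixed, at 65.4 and 31.7 with neomycin and 66.7 and 35.2 without.

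Among the Tead factors, the DNA-binding partners of YAP and TAZ, Tead1 alone had peaks in each untreated library and in no neomycin library. Tead1 lies on chromosome 7 from 112679356 to 112906784. With no peak in the neomycin libraries, it had 677 and 809 bp in the untreated libraries, with pileups of 15 and 10 at percentiles 66.7 and 35.2, and the nearest peak in each neomycin library was 251 kb from the start. The untreated peaks at the lower gene coordinate reached from -482 to 727 bp of the gene end, with positive values inside the gene. Tead2, on chromosome 7 from 45215792 to 45233468, had 1 peak of 91 bp in neomycin replicate 1 and 1 of 325 bp in untreated replicate 1, with pileups of 6 and 15 at percentiles 16.8 and 66.7. The nearest peak was 124 kb away in neomycin replicate 2 and 87.1 kb in untreated replicate 2. It was thus marked in replicate 1 of each group alone, as were 2.64% of all genes, and the reason was not tested.

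Tead3 and Tead4 were marked in each of the 4 libraries. Tead3 lies on chromosome 17 from 28331671 to 28350805. The peaks at its start summed to 60 and 232 bp with neomycin and to 963 and 616 bp without. Its pileup was 11 and 11 with neomycin and 16 and 9 without, at percentiles 88.1 and 51.4 against 75.1 and 19.2. The groups thus overlapped in rank. In length they did not, as at 80.2% of the 3486 windows marked in all 4 libraries, with neomycin below. An end of Tulp1 lies 710 bp from the Tead3 start, so peaks upstream of Tead3 may belong to either gene. Tead4 lies on chromosome 6 from 128227143 to 128300813. It had 70 and 165 bp of peaks with neomycin and 525 and 276 bp without. In rank it went the other way, at percentiles 42.1 and 80.3 with neomycin and 20.8 and 19.2 without. Its pileups overlapped, at 7 and 13 with neomycin and 11 and 9 without. The share of windows with this order of percentiles was not counted, so it is not shown to be unusual.

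The letters GGAATG, or CATTCC on the other strand, are the core that TEAD factors recognise. They were found in 5 of the 8 promoters, 1 match each, and in 13.5% of all promoters of that length. The 5 were Yap1, Wwtr1, Tead3, Sav1 and Lats2, and the matches are shown in capitals with the bases around them, in the direction of the gene and on the minus strand of each chromosome. They start 141 bases before the Yap1 start, 136 before Wwtr1, 182 before Tead3 and 106 before Sav1, and 4 bases after the Lats2 start.
Yap1, chr9:8004722-8004747: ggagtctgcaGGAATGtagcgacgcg
Wwtr1, chr3:57576031-57576056: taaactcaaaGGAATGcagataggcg
Tead3, chr17:28350972-28350997: cgacgagcgaGGAATGgggtgcgcgg
Sav1, chr12:69987093-69987118: gctttcccagCATTCCcagcggcgcg
Lats2, chr14:57746104-57746129: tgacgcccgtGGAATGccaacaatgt
A match is a description of the sequence, and binding was not measured. Promoters marked in all 4 libraries held the letters in 9.8% of cases and those marked in none in 16.2%.

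Of the LATS kinases, which phosphorylate YAP and TAZ, Lats1 had the highest pileup of the 10 genes in untreated replicate 1. Lats1 lies on chromosome 10 from 7681200 to 7716461. It had 1 and 4 peaks at its start with neomycin, summing to 53 and 718 bp, against 2 and 2 without, summing to 830 and 905 bp. The neomycin libraries lay far apart, and replicate 2 came near the untreated values. Pileup was 7 and 14 with neomycin and 20 and 14 without, at percentiles 42.1 and 87.5 against 93.2 and 83.9. Pcmt1 has an end 128 bp from the Lats1 start, so the upstream peaks may belong to either gene. Lats2, itself also a target of YAP in other cells, lies on chromosome 14 from 57689662 to 57746212. It had 230 bp in neomycin replicate 1, with none in neomycin replicate 2, where the nearest peak was 79.9 kb away, against 721 and 690 bp without neomycin. Its pileup was 8 in neomycin replicate 1, at percentile 65.4, and 14 and 11 in the untreated libraries, at 56.5 and 51.3, so here length and rank did not go together.

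Nf2 and Sav1, upstream of the LATS kinases, differed in their marking. Nf2, which encodes Merlin, lies on chromosome 11 from 4757639 to 4849544. It had 1 peak in each library, of 48 and 296 bp with neomycin and 460 and 530 bp without. The value of 48 bp is the shortest length found in the list of neomycin replicate 1. Its pileup was 6 and 10 with neomycin and 15 and 10 without, at percentiles 16.8 and 31.7 against 66.7 and 35.2. Sav1, the scaffold that joins MST to LATS kinases, lies on chromosome 12 from 69965009 to 69988141. Neither neomycin library had a peak there, and the untreated libraries had 591 and 809 bp, with pileups of 12 and 17 at percentiles 32.9 and 94.6. The peak of untreated replicate 2 spanned the start, from -323 to 485 bp. The nearest neomycin peaks were 94.4 and 94.2 kb away, so no peak was called in the gene or near it in either neomycin library.

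**Figure D2:**
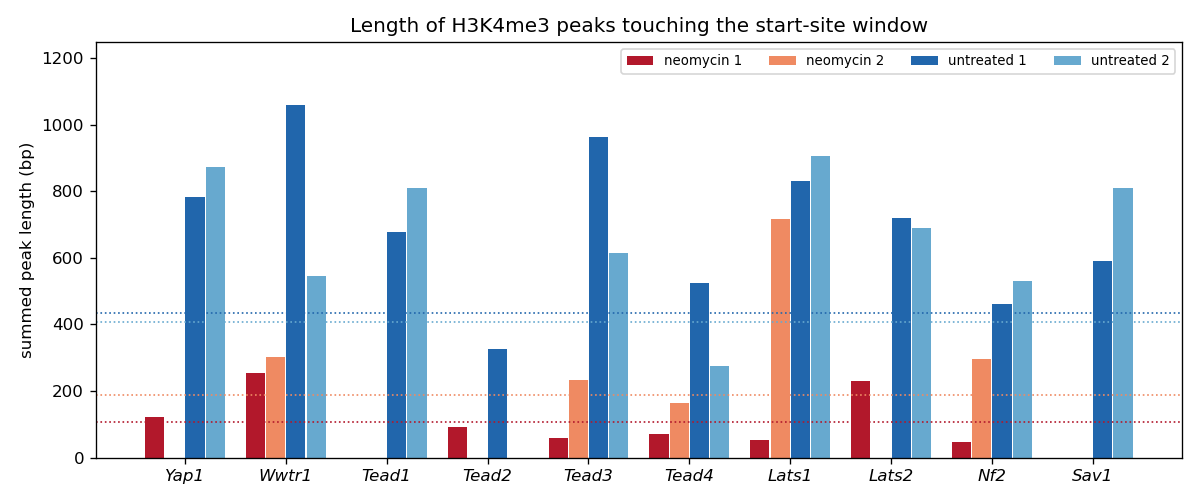
Summed length in bp of the peaks touching the start-site window (y axis) for each gene (x axis) and library, with dotted lines at the median of all marked genes in each library. Sums with neomycin run up to 718 bp at Lats1, and those without up to 1061 bp at Wwtr1. A gene with no bar had no peak in that library.

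The difference in length was shared with the rest of the genome. Both neomycin sums lay below both untreated sums at each of the 5 Hippo genes marked in all 4 libraries, and at 80.2% of the 3486 such windows, with the reverse at 0 of the 5 and 0.344%. Peak length and treatment cannot be told apart here from the shortest length that each list holds. The median sum over the marked Hippo genes was 80.5 and 296.0 bp with neomycin and 699.0 and 690.0 bp without. Over all marked genes it was 106.0 and 187.0 bp with neomycin and 435.0 and 408.0 bp without. Each library was therefore centred on its own median of log2 length and the groups were compared with limma over all 3486 windows. None of the 5 genes passed an adjusted p of 0.05, and the call rate over all windows was 0% in each direction. Unadjusted p fell under 0.05 at 129 windows higher and 206 lower with neomycin.

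On the centred scale Tead3 had a log2 ratio of neomycin over untreated of -1.11 ± 0.62 (SE, n = 2 libraries a group, limma adjusted p = 0.568). Its 95% interval ran from -2.37 to 0.14, and with a window of 2.5 kb either side the ratio was -0.28 (limma adjusted p = 0.912). Lats1 gave -0.56 (interval -1.99 to 0.88), Nf2 -0.46 (-1.77 to 0.85), Tead4 -0.23 (-1.47 to 1.01) and Wwtr1 0.14 (-1.11 to 1.39), with limma adjusted p from 0.852 to 0.972. The median of the 5 was -0.46, beside 0.01 over all 3486 windows. All 5 intervals include 0 and span more than 2 log2 units, so similar lengths are not shown either. The Lats1 value rested on single libraries. Without neomycin replicate 2 it was lower with neomycin by a log2 ratio of -1.97 (limma adjusted p = 0.0255, where 4.18% of windows were called lower), and without neomycin replicate 1 the ratio was 0.89 (limma adjusted p = 0.408). Without centring, where the median over all windows moved by -1.59, Tead3 passed at -2.71 (limma adjusted p = 0.0164) along with 32.5% of windows.

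Differences in peak height did not pass the test either. Both neomycin pileups lay below both untreated pileups at 0 of the 5 genes marked in all 4 libraries and at 42.9% of the 3486 windows, and as percentiles at 1 of the 5, Nf2, and at 26.1%. Highest summit pileup, centred and tested in the same way, gave Tead4 a log2 ratio of 0.46 ± 0.26 (SE, n = 2 libraries a group, limma adjusted p = 0.695) and Tead3 0.39 (limma adjusted p = 0.739). In this fit the variance was pooled over all windows, and the SE was 0.258 at each of the 5 genes. It therefore does not measure the spread between libraries at a single gene. Wwtr1 gave 0.06, Nf2 -0.15 and Lats1 -0.24, with limma adjusted p from 0.826 to 0.953. The higher values at Tead4, Tead3 and Wwtr1 changed sign without centring, to -0.06, -0.13 and -0.45, where the median over all windows moved by -0.52. Limma called 0% of the 3486 windows in each direction, and unadjusted p fell under 0.05 at 110 higher and 145 lower. The median pileup over marked Hippo genes was 7 and 11 with neomycin and 15 and 10 without, and over all marked genes 7 and 11 against 14 and 11.

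**Figure D3:**
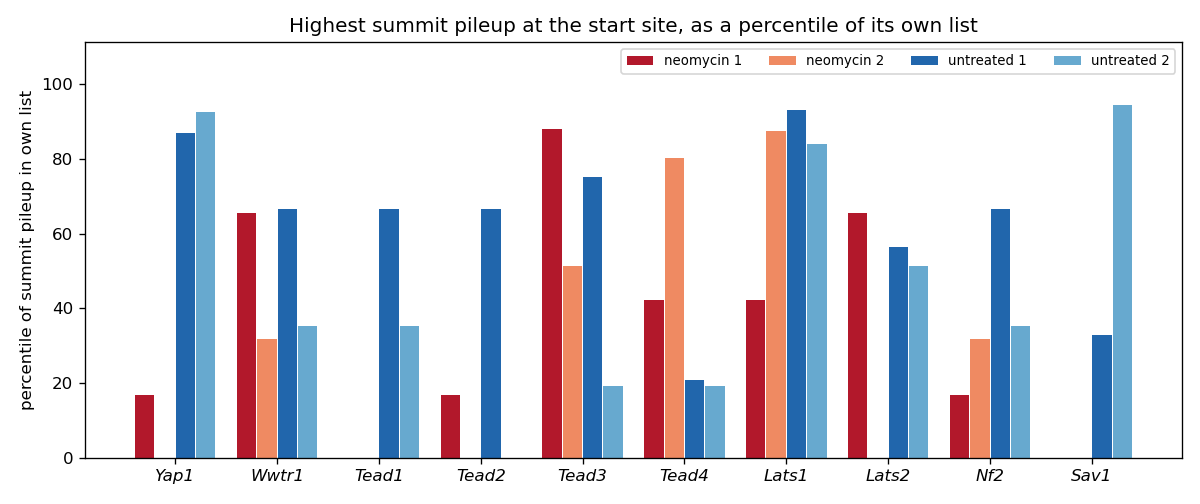
Highest summit pileup at the start site of each gene (x axis), as a percentile of all peaks of its own list (y axis), by library. Yap1 reaches percentiles of 86.9 and 92.6 in the untreated libraries and 16.8 in neomycin replicate 1. Tead4 is higher in both neomycin libraries, an order whose share over all windows was not counted. A gene with no bar had no peak in that library.

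The top peak of each library at these genes was ranked within its own list. By the caller's -log10 q, the top peaks with neomycin stood at percentile 92.1, at Tead3 in replicate 1, and 92.4, at Lats1 in replicate 2. Those without neomycin stood at 96.3, at Lats1 in replicate 1, and 96.4, at Yap1 in replicate 2. Each is the best of 14 and 10 peaks with neomycin and 17 and 13 without. The best of so many ranks high in any list, so these percentiles are only a description. The Tead3 peak lay beyond the start-site window, 1032 to 1083 bp inside the gene. With a -log10 q of at least 10 required, the 10 genes kept 0 of 14 and 0 of 10 peaks with neomycin and 9 of 17 and 2 of 13 without. Over the whole lists 5.25% and 2.37% of peaks passed with neomycin and 39.1% and 21.0% without, so this threshold removes nearly all neomycin peaks at any gene. Yap1 and Lats1 were then the genes marked in the untreated libraries alone, as were 6.46% of all genes. With all lists shortened to 10520 peaks, those genes were Tead1 and Yap1 (5.03% of all genes). Tead1 therefore kept its pattern with lists of equal length, and Sav1 was no longer among them.

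The other genes of the pathway were also marked more often than the average gene in each library. Of 44 further genes in 4 lists, 27 and 22 (61.4% and 50.0%) had a marked start with neomycin, where 33.9% and 32.7% of all genes did. Without neomycin 35 and 27 (79.5% and 61.4%) did, against 46.0% and 35.4% of all genes. In total 17 were marked in all 4 libraries (15.9% of all genes), 36 in at least 1 (53.9% of all genes) and 8 in none. Mob1a was the 1 gene of the 44 marked in the untreated libraries alone (4.66% of all genes). In the neomycin libraries alone 0 were marked (1.37% of all genes). Limma called 0 of the 17 by summed length and 0 by pileup. The median log2 ratio of summed length over the 17 was -0.50, beside 0.01 over all windows, and that of pileup was -0.04, beside -0.01.

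The kinase core apart from LATS was marked in nearly each library. Stk3 and Stk4, which encode MST2 and MST1, had 58 and 134 bp and 68 and 257 bp with neomycin, against 407 and 379 bp and 310 and 298 bp without. Mob1a and Mob1b encode adaptors that activate the LATS kinases. Mob1b had 48 and 301 bp with neomycin and 449 and 377 bp without. At Stk3, Stk4 and Mob1b both neomycin sums lay below both untreated sums, as at 80.2% of the 3486 windows marked in all 4 libraries. Mob1a had no neomycin peak, and 478 and 530 bp without neomycin with pileups of 17 and 13. Of these 4 genes it alone was marked only in the untreated group, as were 4.66% of all genes. Of the 13 upstream regulators, the neomycin libraries marked 11 and 8 (33.9% and 32.7% of all genes). The untreated libraries marked 12 and 11 (46.0% and 35.4% of all genes).

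Binding partners and targets were marked less evenly. Of all genes, the neomycin libraries marked 33.9% and 32.7% and the untreated libraries 46.0% and 35.4%. Of 8 partners of YAP and the TEAD factors, the neomycin libraries marked 4 and 4 and the untreated libraries 5 and 5. Amot, Vgll1 and Vgll2 had no peak at the start in any library. Vgll4, which competes with YAP for TEAD factors, had 0 and 254 bp with neomycin and 944 and 930 bp without. The share of all genes that lacked a peak in neomycin replicate 1 alone was not counted. Amotl2, an angiomotin that binds YAP and is also a YAP target, had 82 and 0 bp with neomycin and 374 and 468 bp without. It lacked a peak in neomycin replicate 2 alone (6.39% of all genes). Of 22 genes known as YAP targets in other cells, Lats2 among them, the neomycin libraries marked 12 and 8 and the untreated libraries 17 and 10. Marked in all 4 libraries were 5 of them (15.9% of all genes). Ccn2, a matricellular protein much used as a readout of YAP, had 48 and 0 bp with neomycin and 380 and 516 bp without. It too lacked a peak in neomycin replicate 2 alone. Its relative Ccn1 had 0 and 163 bp with neomycin and 577 and 0 bp without. Ankrd1, another common readout and a gene of heart muscle, had no peak in any library. The groups overlapped at Ccn1, and of these 3 targets none was marked in 1 group alone.

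**Figure D4:**
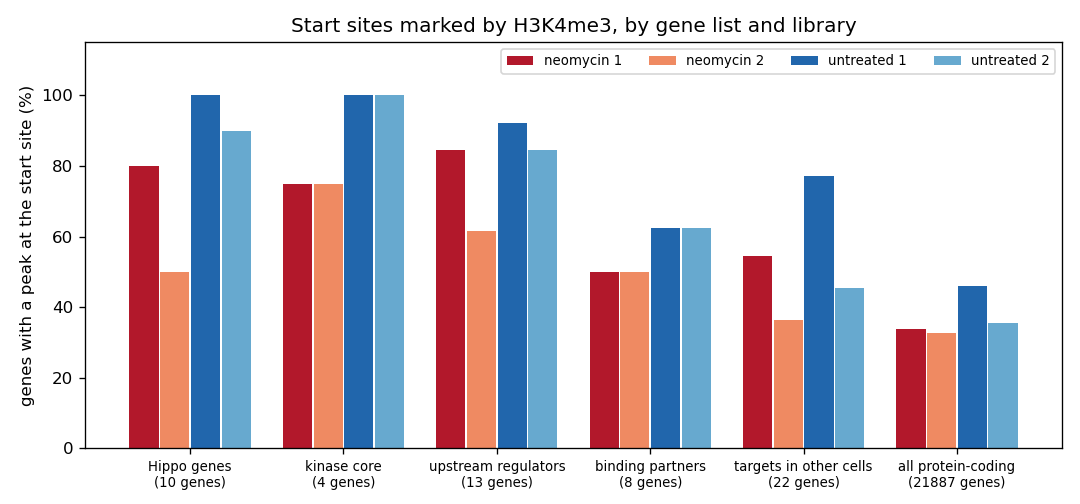
Percentage of genes with a peak at the start site (y axis) for the Hippo genes, 4 further lists of the pathway and all protein-coding genes (x axis), by library. The Hippo genes reach 80.0% and 50.0% with neomycin and 100.0% and 90.0% without, against 33.9%, 32.7%, 46.0% and 35.4% of all genes.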

How the data were processed

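Peak lists of H3K4me3 chromatin immunoprecipitation followed by sequencing were used from 4 libraries, 2 per group. CASAVA 1.4, Bowtie2, MACS2 and deepTools, and the build mm10, are named per the submitters' processing notes. Their roles and parameters were not stated. Each deposited list holds, per the file headers, a peak's start, end and length in bp, the pileup signal at its summit, the authors' fold enrichment (a ratio), and the significance of the peak as a -log10 q-value and a -log10 p-value. These are values of single peaks, used to rank or filter within a list. Depth is unknown, and no interval on counts is given.

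Start sites came from RefSeq promoters of GRCm38.p6, the assembly of mm10, for 17492 of 21887 protein-coding genes, taking the outermost listed start. For the other 4395 the gene end marked in more libraries was used, chosen without treatment labels. The annotation used here gives no exons. Summed length and highest pileup of peaks touching the window were compared with limma 3.58.1 in R 4.3.3 as log2 values centred on each library's median, over windows marked in all 4 libraries, with Benjamini-Hochberg adjustment at 0.05. The fit and the assignment were tested on simulated data. Gene lists were matched by symbol. The genes and lists were chosen with earlier results of these data known. All 10 genes are named, and of the other pathway lists those marked in 1 group alone, those called, and a fixed set. The cell type markers named were picked after their values were seen. Alternatives were a window of 2.5 kb, peaks of -log10 q of at least 10, lists of equal length, an overlap of 100 bp, no centring, bases covered, the gene alone, a replicate block and each library left out. Tables and figures were made in Python 3.11.15 with numpy 2.4.6, pandas 2.3.3 and matplotlib 3.10.9.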

Additional observations from a re-analysis of the deposited data

How the results depend on the processing

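Untreated-only marking numbered 2 Hippo genes with the 2.5 kb window (4.5% of all genes), peaks of -log10 q of at least 10 (6.46%), equal lists (5.03%) and 100 bp of overlap (8.82%). The genes differed as given above. In each setting 0 were marked with neomycin only, where the share of all genes ran from 0.00457% to 5.76%. With 1 library left out, the untreated-only share of all genes ran from 5.73% to 11.1%, and the count of Hippo genes from 2 to 4. Without neomycin replicate 1 it was 4, Yap1 and Lats2 joining, while the share of all genes was 11.1%, beside 4.66%. The count marked in all libraries was 0 at -log10 q of at least 10, where 0 of all genes were. It was 0 with 100 bp of overlap, where 6.57% of all genes were. With 1 library left out it was 5 to 7, where 16.7% to 22.3% of all genes were. At -log10 q of at least 10 the members' peaks numbered 0 and 0 with neomycin and 9 and 2 without. By length, limma called 2 windows higher at 100 bp of overlap, 1132 lower without centring, and 0 to 142 higher and 0 to 204 lower with 1 library left out. The highest counts came without neomycin replicate 2, and without neomycin replicate 1 they were 45 and 78. By pileup it called 0 in each. At -log10 q of at least 10 no window was left to fit. The peak totals are counted per library, so leaving one out does not alter them.

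Of 83 recomputed values of the 5 genes, 66 kept direction and side of the threshold, 15 changed direction without passing it and 2 passed it. Without centring, Wwtr1 had -1.46 by length and -0.45 by pileup, and Tead3 and Tead4 had -0.13 and -0.061 by pileup. Wwtr1 length was -0.24 with equal lists and -0.057 by bases covered, and Lats1 length was 0.13 with the 2.5 kb window. With 1 library left out, length ran from -0.29 to 0.48 at Wwtr1, -1.62 to -0.57 at Tead3, -0.64 to 0.071 at Tead4, -1.97 to 0.89 at Lats1 and -1.30 to 0.42 at Nf2, and pileup from -0.069 to 0.26 at Wwtr1 and -0.38 to 0.029 at Lats1. The lone library left in a group is assumed to vary like the other group. The cause of these changes was not tested. Replicate differences did not go together between the groups (correlation -0.019 by length and -0.013 by pileup), in centred values over windows marked in all 4 libraries. Centring removes a shift of a whole library, and missing peaks are left out, so this cannot settle whether the libraries were paired. With a replicate block limma called 0 windows by either measure.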

Other observations

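Second start sites listed by RefSeq for Nf2 and Lats2, inside those genes, had no peak within 1 kb in any of the 4 libraries, while the outer start of Nf2 was marked in all 4 and that of Lats2 in 3. Among the 13 upstream regulators, Taok2, a kinase that activates MST kinases, had 188 and 449 bp of peaks with neomycin and 194 and 234 bp without. Its centred log2 ratio was 2.04 ± 0.61 (SE, n = 2 libraries a group, limma adjusted p = 0.268), the largest of the 17 further pathway genes tested. Rassf1, a scaffold of MST kinases, had a single start-site peak, of 48 bp in neomycin replicate 1, the shortest length in that list. Within the gene and 1 kb either side it had 3 and 1 peaks with neomycin against 0 and 0 without. The share of all genes with this pattern was not counted, so it is not shown to be unusual. Gadd45b, a stress-response gene and YAP target in other cells, had 219 and 538 bp with neomycin and 410 and 0 bp without. Taok2, Rassf1 and Gadd45b were chosen after their values were seen, and the differences at Rassf1 and Gadd45b were not tested.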
